A study of Mus musculus with 4 samples.

Results

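The mitochondrial ribosomal proteins are the nuclear-encoded proteins of the ribosome that works inside mitochondria. Their genes were taken by symbol, as Mrpl for the large subunit or Mrps for the small subunit followed by a number and at most 1 letter. This gave 76 of the 19505 named genes on the arrays, 48 of the large and 28 of the small subunit, each measured by 1 probe set. The study asked what loss of Mcu, which encodes the channel that lets calcium into mitochondria, does to the liver as it regrows after surgery. Liver RNA of male C57BL6J mice was hybridised to 4 Affymetrix whole-transcript arrays, 1 per group. The KD groups received AAV8-TBG-Cre, a virus that carries Cre recombinase under a hepatocyte-directed promoter, and were sampled 30 h after partial hepatectomy (KD 30 h) or at time 0 (KD 0 h). The control groups, labelled wild type, were littermates given AAV8-TBG-Null, the virus without Cre, at the same times (WT 30 h and WT 0 h). Per the protocol, mice with floxed Mcu alleles (MCUloxp/loxp) were injected at 10 to 12 weeks of age and lost 70% of the liver 5 weeks later, their littermates serving as controls, and RNA was pooled. The series text gives pools of 4 for each genotype and does not say how the animals were divided between the times. Other cells of the liver keep their Mcu, because the TBG promoter drives Cre in hepatocytes. No group was operated on without removal of liver, so the effect of lost tissue cannot be told apart from those of the operation and of the sampling time. The free-text descriptions of the samples name ethanol-fed liver, and that of the KD 30 h sample gives 1 h after surgery. Both go against the titles and the time labels, which were followed here.

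Mitochondrial DNA encodes a few core subunits of the respiratory chain and ATP synthase, and the mitochondrial ribosome makes all of them at the inner membrane. Its small subunit binds the mRNA and reads the codons. Its large subunit joins the amino acids and releases the chain through an exit tunnel that faces the membrane. The ribosomal RNAs come from mitochondrial DNA, but every protein of the particle is made in the cytosol from a nuclear gene and imported. Hepatocytes are rich in mitochondria, and a liver that regrows has to build new ones. Inherited defects in several of these proteins cause respiratory chain disease in humans.

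Values are log2 expression, so a difference of 1 is 2-fold, and they compare arrays for 1 probe set, never probe sets with each other. With 1 array of pooled RNA per group there is no replicate spread: no value carries an error, no test was possible and no difference has a replicate check. Pairs of arrays correlated over 22206 probe sets with r between 0.953 and 0.974. Mcu read 2.63 on the KD 30 h and 2.83 on the KD 0 h array, against 4.30 on the WT 30 h and 4.77 on the WT 0 h array. Hepatocyte markers had mean levels of 11.3 to 11.4 on all 4 arrays (9 of 10 measured). Kupffer cell markers, those of the resident macrophages, summed over 10 of 10 genes to 54.7 (KD 30 h), 55.4 (KD 0 h), 57.8 (WT 30 h) and 51.5 (WT 0 h) log2 units, a scale with no true zero. In bulk tissue, fewer cells of a type and less RNA per cell cannot be told apart. Bright genes as a whole differed between the arrays. Over the 4884 genes whose mean was at or above percentile 75 of all gene means, the median difference ran from -0.25 to 0.18 by comparison, while over all 19505 genes it ran from -0.02 to 0.01. Of the 76 members, 60 were that bright, so their medians are given beside those of these bright genes.

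The members whose 30 h minus 0 h difference was furthest below that of control liver in the KD were Mrpl22, Mrpl13 and Mrpl23 of the large subunit and Mrps18a, Mrps21 and Mrps16 of those with small-subunit names. Mrpl22, a protein of the exit tunnel wall, read 4.25 (KD 30 h), 5.24 (KD 0 h), 5.54 (WT 30 h) and 4.66 (WT 0 h). Mrps18a, which structures of the human and pig mitochondrial ribosome place in the large subunit in spite of its name, read 4.20, 4.88, 5.33 and 4.34 in the same order of arrays. Each was lowest on the KD 30 h array and highest on the WT 30 h array, so the 30 h values lay on opposite sides of both 0 h values. Mrps21 read 5.93 (KD 30 h), 6.45 (KD 0 h), 6.37 (WT 30 h) and 5.64 (WT 0 h), and was thus lowest on the WT 0 h array, with the KD 0 h and WT 30 h arrays close to each other. Mrps16, whose loss causes a fatal respiratory chain defect in humans, read 5.46, 5.81, 6.51 and 5.78. Here only the WT 30 h array stood high, and the other 3 spanned 0.35. Mrpl13 read 5.79 (KD 30 h), 5.82 (KD 0 h), 6.32 (WT 30 h) and 5.35 (WT 0 h), with the KD arrays level and the WT arrays on either side of them. Mrpl23, next to the tunnel exit, read 5.47, 6.10, 5.91 and 5.56, so its KD 0 h and WT 30 h arrays were the high ones. Mrpl11, a protein of the stalk that recruits translation factors, had another pattern: 5.23 and 5.59 on the KD 30 h and KD 0 h arrays, against 6.26 and 6.31 on the WT 30 h and WT 0 h arrays. It was lower on both KD arrays and nearly level between times in WT.

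**Figure D1:**
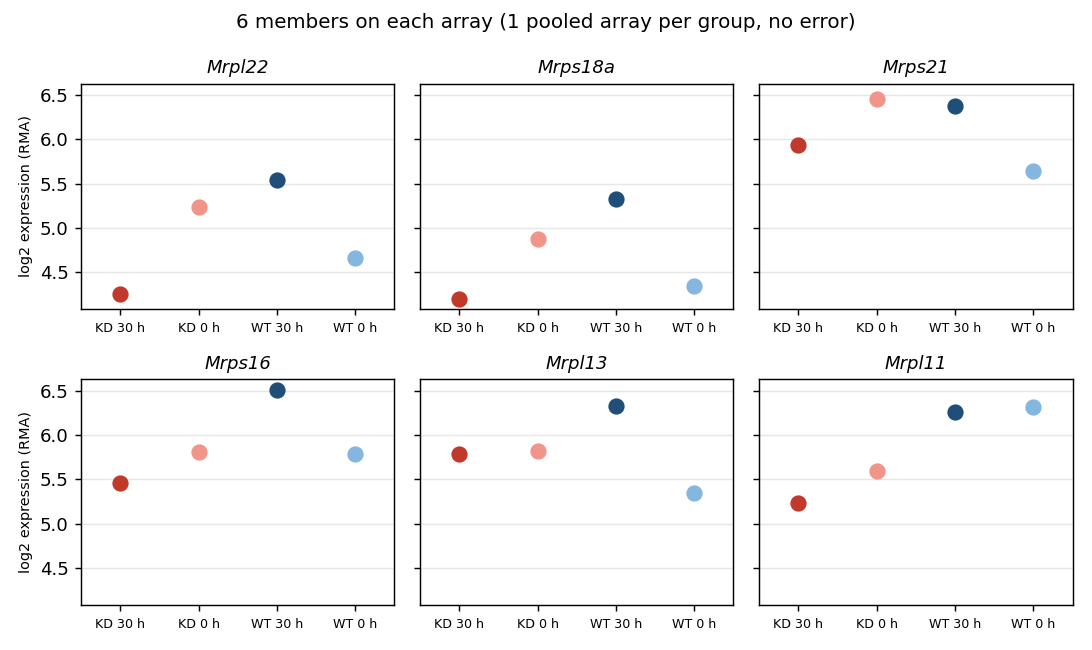
Log2 expression of 6 members (y axis) on each of the 4 arrays (x axis), 1 point per pooled array and no error bar. Mrpl22 and Mrps18a are lowest on KD 30 h and highest on WT 30 h, Mrps16 is high on WT 30 h alone, and Mrpl11 is lower on both KD arrays.

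The proximal promoters of these members are shown because these are the members that the largest differences rest on. RefSeq sequences (assembly GRCm38.p6, from 250 bases before to 50 after the start) were on hand for 67 of the 76 members, 42 large and 25 small, and not for Mrpl13. ETS factors such as GABPA, NRF1 and YY1 are known activators of nuclear genes for mitochondrial proteins, and the E-box is bound by MYC and the clock factors. Both strands were searched for CCGGAAG (ETS), GCGCATGC (the core of the NRF1 site), GATGGCGGC (YY1) and CACGTG (E-box). None of these letters overlap between the motifs found below. Mrpl22 lies at chr11:58171414-58171713 (plus strand), with 1 ETS and 1 NRF1 match. Mrps18a lies at chr17:46110754-46111053 (plus strand), with 1 ETS match, and 1 YY1 match. The Mrps21 window is chr3:95871465-95871764 (minus strand), with 1 ETS match, and that of Mrps16 is chr14:20393441-20393740 (minus strand), with 2 ETS matches. Mrpl23, at chr7:142532782-142533081 (plus strand), held none of the 4 motifs. Each sequence is written in the direction of its gene, with matches in capitals, where CTTCCGG is CCGGAAG read on the other strand.
Mrpl22: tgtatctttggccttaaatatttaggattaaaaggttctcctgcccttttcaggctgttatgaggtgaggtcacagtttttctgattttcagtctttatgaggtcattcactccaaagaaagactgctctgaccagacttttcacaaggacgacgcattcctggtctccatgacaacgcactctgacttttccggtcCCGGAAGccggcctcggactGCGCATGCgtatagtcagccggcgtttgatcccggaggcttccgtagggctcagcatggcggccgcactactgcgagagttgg
Mrps18a: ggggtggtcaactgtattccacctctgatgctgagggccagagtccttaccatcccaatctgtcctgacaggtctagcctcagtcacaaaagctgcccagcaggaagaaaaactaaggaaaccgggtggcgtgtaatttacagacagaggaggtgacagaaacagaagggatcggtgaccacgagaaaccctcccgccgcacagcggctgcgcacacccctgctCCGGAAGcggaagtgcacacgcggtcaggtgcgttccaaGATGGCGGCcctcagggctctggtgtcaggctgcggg
Mrps21: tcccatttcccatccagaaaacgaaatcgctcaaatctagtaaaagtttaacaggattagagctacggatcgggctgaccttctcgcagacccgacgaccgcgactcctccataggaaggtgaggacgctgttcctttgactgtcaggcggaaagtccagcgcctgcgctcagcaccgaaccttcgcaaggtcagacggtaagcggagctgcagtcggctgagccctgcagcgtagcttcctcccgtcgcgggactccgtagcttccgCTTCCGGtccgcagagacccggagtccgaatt
Mrps16: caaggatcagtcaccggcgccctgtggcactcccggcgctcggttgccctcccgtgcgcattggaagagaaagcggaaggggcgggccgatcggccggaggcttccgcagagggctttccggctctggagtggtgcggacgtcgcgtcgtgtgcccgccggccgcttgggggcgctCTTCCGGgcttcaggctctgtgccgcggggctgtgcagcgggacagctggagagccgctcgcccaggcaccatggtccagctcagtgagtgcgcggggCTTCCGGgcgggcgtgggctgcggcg
Mrpl23: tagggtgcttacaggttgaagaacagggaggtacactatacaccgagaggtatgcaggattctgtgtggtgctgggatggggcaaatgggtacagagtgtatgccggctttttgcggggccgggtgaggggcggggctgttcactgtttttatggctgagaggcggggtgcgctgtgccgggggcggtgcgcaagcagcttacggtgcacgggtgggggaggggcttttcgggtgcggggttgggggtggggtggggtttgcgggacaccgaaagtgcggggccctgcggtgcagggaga
A match is a stretch of letters, not a shown binding site, and its absence says only that the letters are not in this window.

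Over all members with a sequence, the ETS motif was the most frequent, in 24 of 67 (35.8%; 31.0% of large and 44.0% of small subunit genes). It stood in 9.12% of all 27025 mouse promoters of the table and in 19.2% of those of 4011 array genes at or above percentile 75. The NRF1 core stood in 8 members (11.9%), against 2.80% of all promoters and 5.63% of the bright genes' promoters. The YY1 motif stood in 5 members (7.46%), against 1.1% and 2.74%. The E-box also stood in 5 (7.46%), against 7.24% and 10.1%. Another gene started within 1000 bases upstream on the other strand in 26 of the 67 members (38.8%), against 11.4% of all genes of the table and 18.5% of the bright genes. One such pair joins members of both subunits, Mrpl46 and Mrps11, whose starts are 42 bases apart. Other partners have mitochondrial roles too: Mrpl43 starts 116 bases from Twnk, the mitochondrial DNA helicase, Mrps12 147 bases from Sars2, the mitochondrial seryl-tRNA synthetase, and Mrpl47 308 bases from the complex I gene Ndufb5. The 24 members with the ETS motif and the 43 without it had median WT responses of 0.26 and 0.17. Their median KD responses were -0.06 and -0.01, and their median differences of responses -0.27 and -0.26. At least 1.5-fold higher in WT at 30 h were 7 of the 24 and 6 of the 43. Of the 9759 genes at or above the median of gene means, 17.5% were. The 6 include Mrpl47, which lies below that median. At least 1.5-fold lower in the KD than in WT at 30 h were 4 and 2, against 12.5% of the 9759 genes. For the NRF1 core the median difference of responses was 0.005 in the 8 members with it and -0.27 in the 59 without it. For the E-box it was 0.14 in 5 and -0.27 in 62, and for YY1 -0.27 in 5 and -0.265 in 62. None of these was tested.

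In control liver, most members were higher at 30 h than at 0 h. The large subunit had a median difference of 0.18, with 39 of 48 members above 0 and 9 below, and the small subunit one of 0.18 (0.175 before rounding), with 22 of 28 above 0, 5 below and 1 level. The bright genes at or above percentile 75 also had a median of 0.18, with 3172 of 4884 above 0 and 1664 below. A size of at least 1.5-fold was counted among the genes whose mean was at or above the median of gene means (9759 genes, among them 75 of the 76 members, all but Mrpl47). At least 1.5-fold higher were 13 of the 75 members (17.3%), against 17.5% of these 9759 genes, and at least 1.5-fold lower were 0 members, against 8.05%. The share of higher members was near that background. Without this filter 14 of 76 members were higher (18.4%), against 12.5% of all 19505 genes. After quantile normalization of the arrays the medians were 0.03 for the large and -0.02 for the small subunit, and after cyclic loess 0.07 and 0.0048, since both methods bring the median of the bright genes to near 0.

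The 3 highest of the large subunit in control liver were Mrpl13 (0.97), Mrpl45 (0.93), which anchors the ribosome to the inner membrane, and Mrpl22 (0.88, 1.84-fold). Those of the small subunit were Mrps18a (0.99, 1.99-fold), Mrps21 and Mrps16 (0.73 each). Mrpl45 read 6.46 at 30 h and 5.53 at 0 h in WT, and the stalk protein Mrpl12, which also binds the mitochondrial RNA polymerase in human cells, read 8.28 and 7.60. Mrpl10, which carries the Mrpl12 copies on the stalk, read 5.73 at 30 h and 5.05 at 0 h. Of the 13 members, 5 passed 1.5-fold under all 3 other scalings: Mrpl13, Mrpl22, Mrpl45, Mrpl52 and Mrps18a. The 3 lowest of the large subunit were Mrpl39 (-0.53), Mrpl36 (-0.41) and Mrpl1 (-0.25), a protein of the stalk on the other side of the particle. Those of the small subunit were Mrps35 (-0.56), a protein of the head, Mrps26 (-0.23) and Mrps28 (-0.20). None of these reached 1.5-fold as deposited.

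In KD liver, the members were spread about 0 between 30 h and 0 h. The medians were -0.03 for each subunit (-0.025 before rounding), beside -0.06 for the bright genes. Of the large subunit 19 members were above 0 and 27 below, and of the small subunit 14 and 14. Among the 4884 bright genes 2154 were above 0 and 2693 below. At least 1.5-fold higher was 1 of 75 members, against 9.12% of the 9759 genes, and at least 1.5-fold lower were 4, against 12.0%. Both counts were below the background. The higher member was Mrpl20 (0.66), needed early in large-subunit assembly in bacteria, which read 7.26 at 30 h and 6.60 at 0 h in KD liver and was also higher at 30 h in WT liver (7.33 against 6.81). The 4 lower members were Mrpl22 (-0.99, 1.99-fold lower), Mrps18a (-0.68), Mrpl14 (-0.67), which lies at the subunit interface and binds the assembly factor Malsu1 in human mitochondria, and Mrpl23 (-0.63). Mrpl14 read 4.88 at 30 h and 5.55 at 0 h in KD liver. Mrpl23 no longer reached 1.5-fold after quantile normalization (-0.57) or cyclic loess (-0.55). After Mrpl20, the highest of the large subunit were Mrpl32 (0.41), whose maturation by the m-AAA protease is known in yeast and mouse, and Mrpl19 (0.36). The highest 3 of the small subunit were Mrps23 (0.39), Mrps7 (0.35) and Mrps11 (0.31), and its lowest after Mrps18a were Mrps9 (-0.54) and Mrps21 (-0.52).

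At 0 h, KD and WT liver differed little in these genes. The KD minus WT medians were 0.11 (0.105 before rounding) for the large and 0.12 for the small subunit, beside 0.08 for the bright genes, with 32 of 48 and 19 of 28 members above 0. So were 2957 of the 4884 bright genes. At least 1.5-fold higher in the KD were 3 of 75 members, against 7.70% of the 9759 genes, and at least 1.5-fold lower was 1, against 4.49%. The 3 were Mrps21 (0.81, 1.75-fold), Mrpl52 (0.74) and Mrpl10 (0.66), and the lower one was Mrpl11 (-0.72, 1.65-fold lower). All 4 passed 1.5-fold under the 3 other scalings too. Mrpl52 read 5.12 on the KD 0 h and 4.38 on the WT 0 h array. For these 3 higher members the WT 0 h array was the lowest of the 4, and they were also at least 1.5-fold higher at 30 h than at 0 h in WT, a comparison that shares this array. In the large subunit Mrpl22 (0.58) was the next highest, and Mrpl39 (-0.41) and Mrpl1 (-0.32) the next lowest. In the small subunit Mrps18a (0.54) and Mrps5 (0.40) were the next highest, and Mrps15 (-0.54), Mrps35 (-0.36) and Mrps18c (-0.34) the 3 lowest.

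At 30 h, most large-subunit members were lower in KD than in WT liver. The large-subunit median was -0.21, with 10 members above 0, 37 below and 1 level, and the small-subunit median -0.12 (-0.115 before rounding), with 11 above and 17 below. The bright genes had a median of -0.17, with 1398 of 4884 above 0 and 3429 below. At least 1.5-fold lower were 6 of 75 members, against 12.5% of the 9759 genes, and 0 were at least 1.5-fold higher, against 6.31%. The median was -0.02 for the large and 0.06 for the small subunit after quantile normalization, and -0.04 and 0.05 after cyclic loess, so the sign for the small subunit turned. The 6 were Mrpl22 (-1.29, 2.45-fold lower), Mrps18a (-1.13, 2.19-fold lower), Mrps16 (-1.05), Mrpl11 (-1.03), Mrps22 (-0.65) and Mrpl1 (-0.60). The first 4 passed 1.5-fold under the 3 other scalings, where Mrpl22 ran from -1.35 to -1.21, Mrps18a from -1.19 to -1.06, Mrps16 from -1.11 to -0.85 and Mrpl11 from -1.09 to -0.86. Mrps22, mutated in human respiratory chain disease, read 5.67 on the KD 30 h and 6.32 on the WT 30 h array. Mrpl1 read 5.16 and 5.76 on these arrays. The 3 highest of the small subunit were Mrps28 (0.39), Mrps26 (0.26) and Mrps7 (0.23). Those of the large subunit were the peptidyl-tRNA hydrolase Mrpl58 (0.22), which frees stalled ribosomes, Mrpl41 (0.15) and Mrpl48 (0.14).

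**Figure D2:**
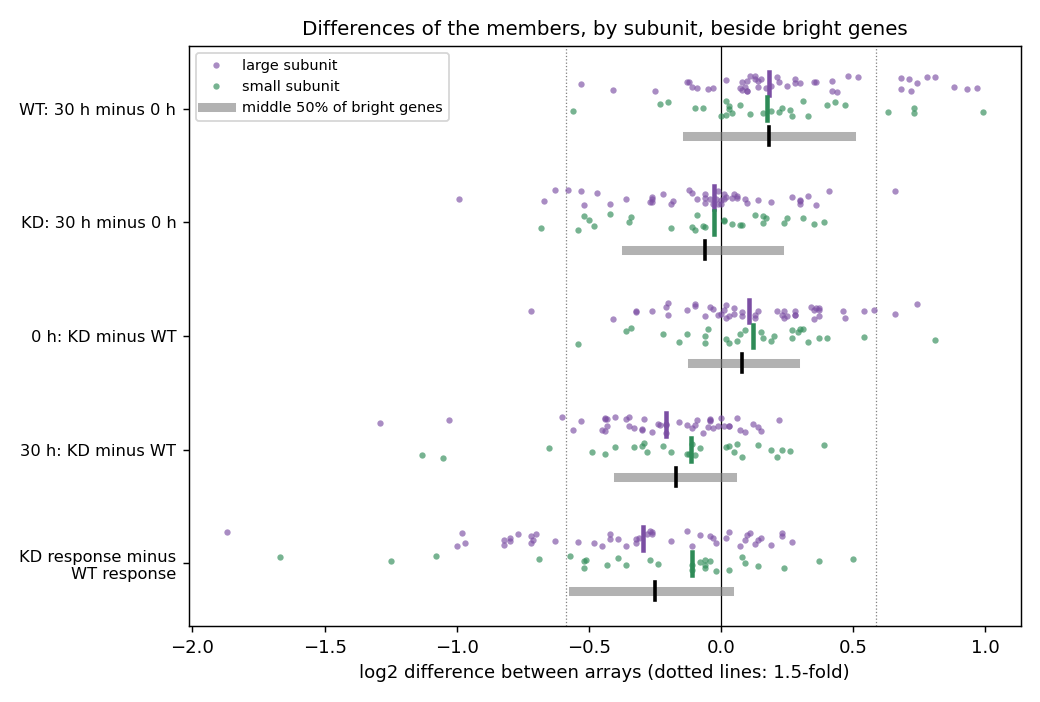
Log2 difference (x axis) of each member in the 5 comparisons (y axis), with large-subunit genes in purple and small-subunit genes in green; coloured ticks are their medians and dotted lines 1.5-fold. The grey bar spans the middle 50% of the genes at or above percentile 75 of gene means, with their median as a black tick. The large-subunit medians lie within 0.05 of that tick, the small-subunit median of the last comparison is -0.11 beside -0.25, and single members reach -1.87.

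The response of KD liver minus that of WT liver, which uses all 4 arrays, was below 0 for most members (56 of 76). It was also below 0 for 3540 of the 4884 bright genes. The large-subunit median was -0.30 (-0.295 before rounding), with 35 of 48 below 0, and the small-subunit median -0.11, with 21 of 28 below 0, beside -0.25 for the bright genes. At least 1.5-fold lower were 17 of 75 members (22.7%), against 22.5% of the 9759 genes, and 0 were at least 1.5-fold higher, against 9.63%. The share of lower members was again near the background. Without the filter on dim genes 18 of 76 members were lower (23.7%), against 17.0% of all 19505 genes. Quantile normalization gave -0.06 for the large and 0.08 for the small subunit, and cyclic loess gave -0.07 and 0.05. Of the 17 members, 9 kept at least 1.5-fold under all 3 scalings. They were Mrpl22 (-1.87, 3.66-fold), Mrps18a (-1.67, 3.18-fold), Mrps21 (-1.25), Mrps16 (-1.08), Mrpl13 (-1.0), Mrpl23 (-0.98), Mrpl52 (-0.97), Mrpl14 (-0.82) and Mrpl3 (-0.82). The 3 highest of the small subunit were Mrps35 (0.50), Mrps28 (0.37) and Mrps18c (0.24), and those of the large subunit Mrpl32 (0.27), Mrpl36 and Mrpl19 (0.23 each). Of the 10 Kupffer cell markers, 8 were at least 1.5-fold lower in this comparison (median -0.72). Sinusoidal endothelium markers had 4 of 8 lower and 1 higher (median -0.49), and stellate cell markers 3 of 8 lower and 0 higher (median -0.28). Hepatocyte markers had 0 of 9 lower (median -0.06). The medians of neutrophil, T and B cell, cholangiocyte and erythroid markers lay above 0, from 0.015 to 0.395. At least 1.5-fold lower were 2 of 6, 1 of 6, 0 of 4 and 0 of 4 of them in that order. Higher were 0, 1, 0 and 1. At or above the median of gene means were only 0, 1, 2 and 3 of them. The part of any cell type in the members' values was not tested.

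**Figure D3:**
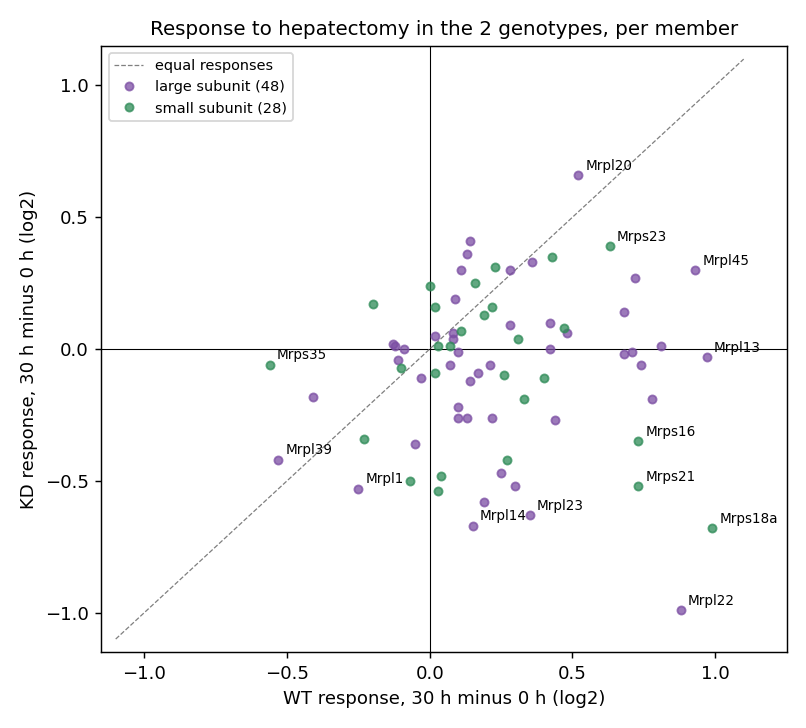
Response of each member, 30 h minus 0 h, in KD liver (y axis, log2) against that in WT liver (x axis, log2), 1 point per gene; the dashed line marks equal responses. Mrpl22, Mrps18a, Mrps21 and Mrps16 lie at the lower right, above 0 in WT and below 0 in KD, while Mrpl20 is above 0 in both.

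Over the 76 members the KD and WT responses, which share no array, had a Pearson correlation of 0.03 (0.133 for the large and -0.164 for the small subunit). Over the 4884 bright genes it was 0.65. These are correlations across genes of the same 4 arrays, and genes are not independent replicates. The members' responses were also narrower: their SD over genes was 0.31 in the KD and 0.34 in WT, against 0.57 in each for the bright genes. Of the members, 29 were above 0 in both genotypes, 10 below 0 in both, 31 above 0 in WT and below 0 in the KD, and 3 the reverse. Over the 4884 bright genes these counts were 1729, 1235, 1422 and 413.

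By place in the ribosome, the exit tunnel and membrane anchor proteins of the large subunit (Mrpl22, Mrpl23, Mrpl24, Mrpl44, Mrpl45 and Mrpl47) had the lowest median difference of responses of the role groups, -0.72 (-0.715 before rounding), with 5 of 6 below 0. At least 1.5-fold lower were 4 of the 6, against 22.5% of the 9759 genes. The 4 include Mrpl47, which lies below the filter behind that share, and Mrpl45, which falls short of 1.5-fold under other scalings (up to -0.39). Their median WT response was 0.58 and their median KD response -0.13. Mrpl24 differed by at most 0.09 in any comparison and read 6.75, 6.75, 6.69 and 6.78 (KD 30 h, KD 0 h, WT 30 h, WT 0 h), so neighbours in the tunnel did not share a profile. Mrpl44, which is related to ribonuclease III and mutated in human cardiomyopathy, read 4.94, 5.20, 5.29 and 5.07. Mrpl47 was the dimmest member, at percentile 42.4 of gene means, and read 3.37, 3.36, 3.93 and 3.12. For the stalk (Mrpl10, Mrpl11 and Mrpl12, while Mrpl53 had no named probe set) the 3 differences of responses ran from -0.70 to -0.31. The stalk proteins opposed each other at 0 h, with Mrpl10 at 0.66 and Mrpl11 at -0.72.

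The central protuberance, where the subunits meet (Mrpl18, Mrpl38, Mrpl40, Mrpl46, Mrpl48 and Mrpl58), had no member past 1.5-fold in any of the 5 comparisons, and a median difference of responses of -0.15 (-0.145 before rounding). Mrpl58 read 7.22 (KD 30 h), 6.89 (KD 0 h), 7.0 (WT 30 h) and 6.64 (WT 0 h), higher at 30 h in both genotypes by 0.33 in the KD and 0.36 in WT. Around the peptidyl transferase centre (Mrpl2, Mrpl3, Mrpl4, Mrpl16 and Mrpl27) all 5 differences of responses were below 0, from -0.82 for Mrpl3 to -0.11 for Mrpl16. Mrpl3 read 4.92, 5.44, 5.37 and 5.07 in that order of arrays, lowest on KD 30 h. In the head and decoding region of the small subunit (Mrps7, Mrps9, Mrps10, Mrps12 and Mrps14) the median difference of responses was -0.08. Mrps12, which lines the decoding site, read 6.63, 6.70, 6.44 and 6.54, a span of 0.26, whereas Mrps9 read 5.72, 6.26, 6.02 and 5.99, with KD 30 h low.

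The S18 paralogs were split. Mrps18a had a difference of responses of -1.67, against 0.09 for Mrps18b and 0.24 for Mrps18c. Mrps18b read 5.96 (KD 30 h), 5.71 (KD 0 h), 6.09 (WT 30 h) and 5.93 (WT 0 h), and Mrps18c read 5.12, 4.88, 5.22 and 5.22. In human mitochondria Mrps18b and Mrps18c sit in the small subunit and Mrps18a in the large. With Mrps18a and Mrps30 counted in the large subunit and Mrps36, described as a part of the 2-oxoglutarate dehydrogenase complex, left out, no subunit median moved by 0.1 or more. The 8 genes behind human respiratory chain disease (Mrps2, Mrps7, Mrps16, Mrps22, Mrps34, Mrpl3, Mrpl12 and Mrpl44) had differences of responses between -1.08 and -0.06, all below 0 as deposited. Under other scalings Mrps2 and Mrps7 reach 0.18 and 0.21, above 0. At least 1.5-fold lower were 2 of the 8, Mrps16 and Mrpl3, near the 22.5% of the 9759 genes. Mrps7 read 7.80 (KD 30 h), 7.45 (KD 0 h), 7.57 (WT 30 h) and 7.14 (WT 0 h), higher at 30 h in both genotypes. Mrps34 read 6.05, 6.55, 6.33 and 6.40, low on KD 30 h alone, and Mrps2 read 6.15, 5.99, 5.94 and 5.72.

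**Figure D4:**
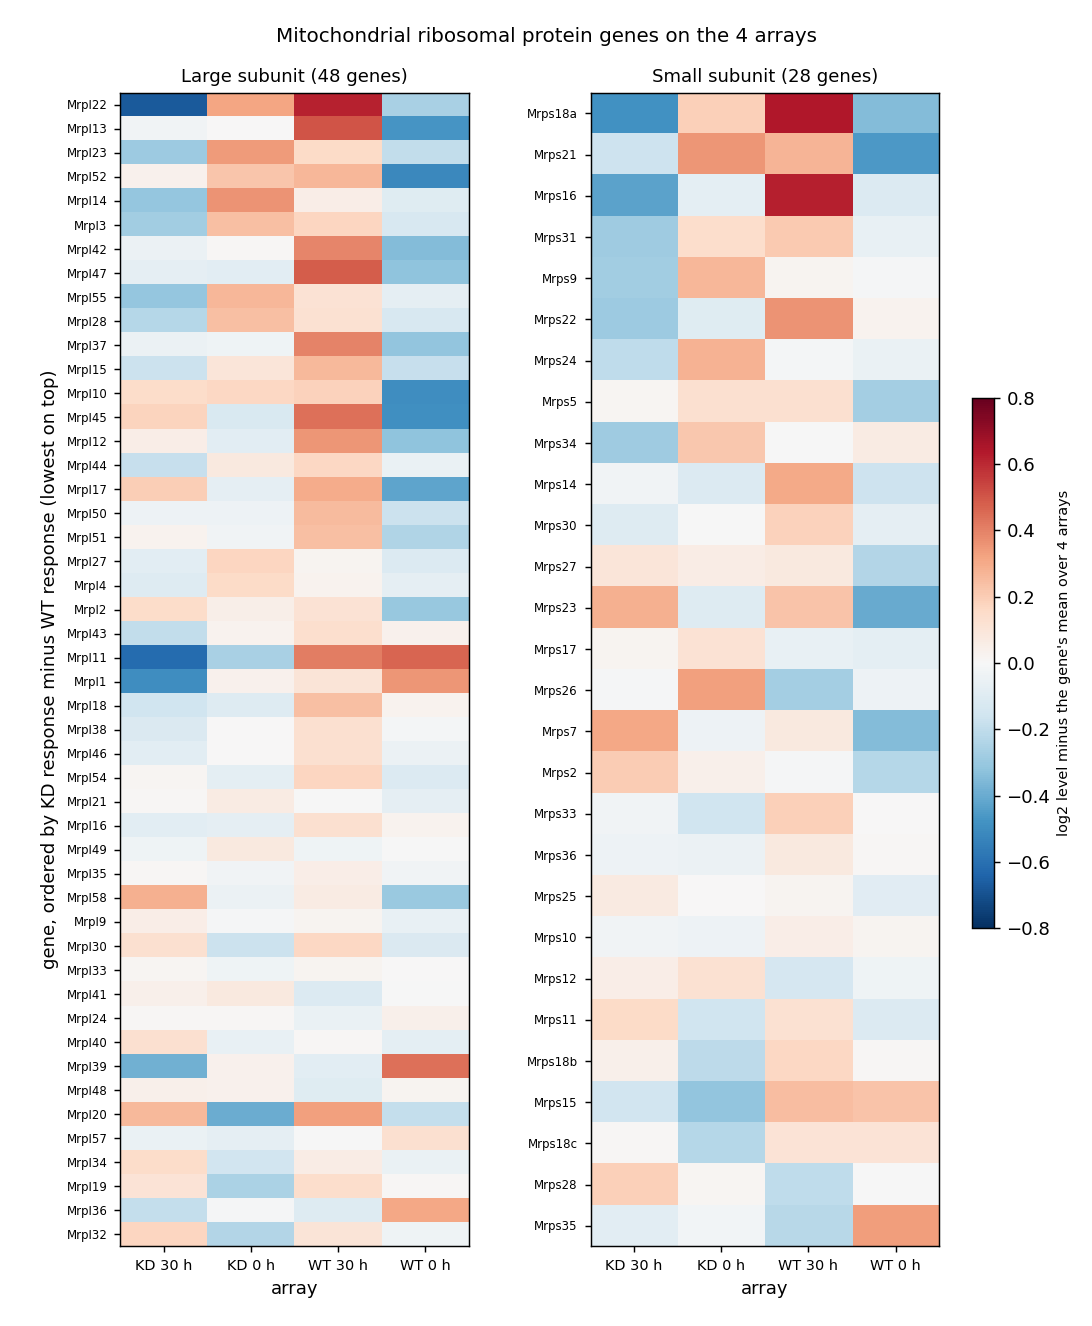
Each member's log2 level minus its own mean over the 4 arrays (colour), with arrays in columns and genes in rows, large subunit left and small subunit right, ordered by KD response minus WT response with the lowest on top. The top row of each subunit, Mrpl22 and Mrps18a, is blue on KD 30 h and red on WT 30 h. Mrpl13, Mrpl52 and Mrps21, also near the top, are bluest on WT 0 h instead. Most rows in the lower part are pale: 45 of the 76 members spanned less than 0.5 over the arrays.

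Most members varied little over the arrays. The range from the lowest to the highest array had a median of 0.44 (0.435 before rounding) and ran from 0.06 to 1.29, with 59.2% of members under 0.5 and 4 (5.26%) at 1 or more. Of the bright genes, 40.1% were under 0.5 and 13.1% at 1 or more. The WT 30 h array held the highest value for 36 of the 76 members (47.4%), 25 of 48 large and 11 of 28 small, against 41.9% of the bright genes. The lowest value lay on WT 0 h for 28 members (36.8%) and on KD 30 h for 25 (32.9%), against 33.7% of the bright genes for each. Ties were counted for no array.

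**Figure D5:**
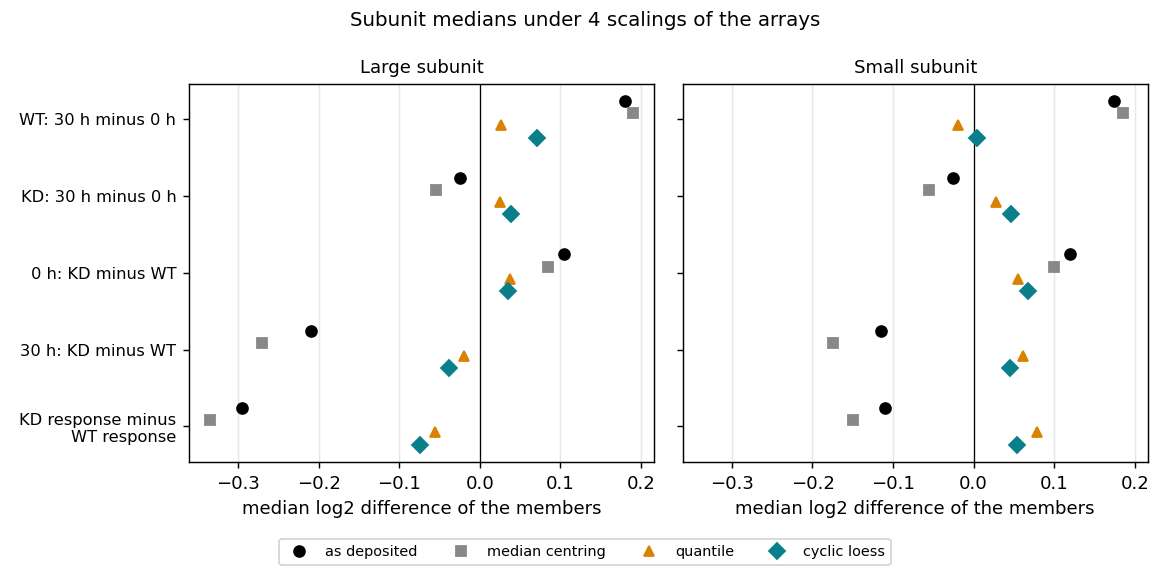
Median log2 difference of the members (x axis) in the 5 comparisons (y axis) for the large subunit (left) and the small subunit (right), with the values as deposited and after 3 further scalings of the arrays. Median centring stays near the deposited values, while quantile normalization and cyclic loess bring the medians to between -0.07 and 0.08.

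Other genes of mitochondrial translation, counted over all measured genes of each list, had medians below 0 in the KD minus WT comparison at 30 h. Mitochondrial ribosomal proteins with other symbols gave 4 measured genes. Ptcd3, a pentatricopeptide protein of the small subunit, had a KD response of -1.45 and differed by -1.89 between KD and WT at 30 h, further below 0 than any of the 76 members. Gadd45gip1, a large-subunit protein, differed there by 0.53. The 28 measured assembly and rRNA modification factors had a median of -0.24 at 30 h, beside -0.17 for the bright genes. Of the 28, 7 were at least 1.5-fold lower there, against 9.19% of all 19505 genes and 12.5% of the 9759, and 1 was higher. Their differences of responses had a median of -0.48, beside -0.25 for the bright genes. By that measure 12 of 28 (42.9%) were at least 1.5-fold lower, against 17.0% of all genes and 22.5% of the 9759, and 2 were higher. The lowest were the RNA helicase Dhx30 (-1.03) and the pseudouridine synthase Rpusd4 (-0.92), and the highest Mettl17 (1.34) and the rRNA methyltransferase Mrm1 (0.81). Rpusd4 lies below the median of gene means.

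The 17 translation factors had a median of -0.33 in the KD minus WT comparison at 30 h, beside -0.17 for the bright genes, with 15 below 0. Of the 17, 2 (11.8%) were at least 1.5-fold lower, near the 9.19% of all genes and the 12.5% of the 9759. The lowest differences of responses were those of the release factor family members Mtrf1l (-1.29) and Mtrf1 (-1.20), and the highest those of Mtres1 (0.67) and the elongation factor Guf1 (0.29). Mtrf1 lies below the median of gene means. The 17 measured transcription and RNA processing genes had medians of -0.13 at 30 h and -0.12 in the difference of responses. In the latter Elac2 (-0.66) and Tfb2m (-0.61) were lowest, and the RNase P subunit Prorp (0.83) and Tefm (0.44) highest. Prorp and Tefm lie below the median of gene means. The 60 cytosolic ribosomal protein genes had higher medians between 30 h and 0 h than the mitochondrial ones, 0.32 in the KD and 0.47 (0.465 before rounding) in WT, with 53 and 57 of 60 above 0. At least 1.5-fold higher were 6 of 60 in the KD (10.0%), near the 10.4% of all genes and 9.12% of the 9759, and 20 of 60 in WT (33.3%), against 12.5% and 17.5%. The 76 nuclear-encoded genes of the respiratory chain and ATP synthase had medians of -0.16 in the KD and 0.13 in WT, and a median difference of responses of -0.24 (-0.235 before rounding). This stands between the large-subunit and the small-subunit medians of the mitochondrial ribosome. No test of these differences between lists was possible.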

How the data were processed

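Liver RNA of 4 groups was measured on 1 array each, of RNA pooled by genotype, per the series text, and groups were taken from the sample titles. Per the labels' protocols, the GeneChip WT Plus kit served to label the cDNA with biotin. The authors deposited 1 log2 value for each probe set, to 2 decimals. Per the submitters' processing notes these are RMA values, from Affymetrix Expression Console. RMA scales the arrays to each other, so a shift of all genes would not be seen. The genome build was not given in the sources used here. Array medians were 3.84 (KD 30 h), 3.79 (KD 0 h), 3.75 (WT 30 h) and 3.77 (WT 0 h). The SD over probe sets was 1.85, 1.88, 1.96 and 1.83 in the same order, so the deposited arrays differed in spread. No detection call was used, dim values understate differences, and precision is limited by the number of arrays.

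Of 22206 probe sets, 19572 carried 1 gene symbol in the platform annotation, 0 several, and 2634 were unnamed and not used. For the 55 of 19505 genes with several, the probe set with the highest mean was kept. All 76 members matched a gene ID with the same symbol in the GRCm38.p6 annotation. Differences were subtracted on the log2 scale and counted at 1.5-fold (log2 0.585) among genes with a mean of at least 3.83, the median of gene means, and percentile 75 was 5.25. The 1.5-fold size was chosen because earlier results showed genes of this kind to differ by less than 2-fold. The members, gene lists and sizes were chosen with earlier results of these data known. Genes named are the 3 highest and 3 lowest members of each subunit in each comparison, the members of the role groups, those past 1.5-fold where their count is given, and the 2 highest and 2 lowest of a pathway list. Promoter windows used the first listed start of a gene.

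Alternatives were median centring, quantile and cyclic loess scaling (limma 3.58.1, R 4.3.3), the mean of probe sets, no filter or a filter at percentile 75, sizes of 1.25-fold and 2-fold, the mean over members, and subunits by structure. Chosen after seeing the data were medians over members above the filter alone and medians less that of the bright genes. The counting was tested on simulated data. Python 3.11.15, pandas 2.3.3, numpy 2.4.6 and matplotlib 3.10.9 were used. The genotype entry of the KD samples differs from the treatment protocol and is not reported here. The KD groups follow the titles, source names and viral treatment.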

Additional observations from a re-analysis of the deposited data

Results flagged for a closer look

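The responses to hepatectomy, 30 h minus 0 h, had opposite signs in KD and WT liver in 34 of the 76 members, and 10 of these (6 large and 4 small) differed by at least 0.2 in both genotypes, a size chosen after the data were seen. Of the 4884 bright genes, 37.6% had opposite signs and 13.0% also reached that size, beside 44.7% and 13.2% of the members. None of these differences between the genotypes was tested, since each response is a difference between 2 arrays. Mrpl22 had the widest, -1.87 (KD response -0.99, WT response 0.88), followed by Mrps18a with -1.67 (-0.68 in KD, 0.99 in WT). Mrps21 came to -1.25 (-0.52 in KD, 0.73 in WT) and Mrps16 to -1.08 (-0.35 and 0.73). Mrpl23 came to -0.98 (-0.63 in KD, 0.35 in WT), Mrpl3 to -0.82 (-0.52 and 0.30) and Mrpl28 to -0.72 (-0.47 and 0.25). For Mrpl15 the difference was -0.71 (-0.27 in KD, 0.44 in WT), for Mrps31 -0.69 (-0.42 and 0.27) and for Mrpl44 -0.48 (-0.26 and 0.22). The subunit medians also had opposite signs, -0.025 in KD and 0.18 in WT for the large subunit (a difference of -0.205) and -0.025 and 0.175 for the small (-0.20). The opposition ended after cyclic loess (0.039 in KD and 0.0714 in WT for the large, 0.0467 and 0.0048 for the small subunit) and, for the large subunit, after quantile normalization (0.025 and 0.0263). For the small subunit quantile normalization turned both signs (0.0275 and -0.0194). Those medians lie beside -0.06 in KD and 0.18 in WT for the 4884 bright genes.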

How the results depend on the processing

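With 1 array per group no difference has a replicate check, and no array could be left out. No paired analysis was possible because each group holds a single array. A median that moves by less than 0.1, or a count that stays within 1.5 times, is taken as unmoved. Median centring left all 20 values so, and subunits by structure and brighter members alone all 10 medians. The mean of probe sets could not move a member's value, since each member has 1 probe set. Leaving out the filter could not move the medians, which use all members in any case, and it left the counts unmoved. KD response medians, all within 0.06 of 0, turned positive after quantile normalization (0.025 large, 0.0275 small) and cyclic loess (0.039 and 0.0467).

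For the WT response, the large and small medians were 0.0263 and -0.0194 after quantile normalization, 0.0714 and 0.0048 after cyclic loess, and 0.0 and -0.005 less the median of the bright genes. For KD minus WT at 30 h they were -0.02 and 0.0619, -0.0386 and 0.0451, and -0.04 and 0.055 under these settings, and for the difference of responses -0.0556 and 0.0788, -0.0743 and 0.0542, and -0.045 and 0.14. The mean for the small subunit was -0.2711 in that last comparison. Quantile normalization and cyclic loess each gave 5 members higher and 2 lower in the WT response, and 2 higher and 9 lower in the difference of responses. Among the 60 members at or above percentile 75, 1 was at least 1.5-fold lower in the KD response, against 12.5% of such genes. At the smaller of the other fold sizes, 24 of 75 were higher and 3 lower in the WT response, against 32.6% and 19.4% of the genes. The KD response gave 6 and 17, against 20.1% and 26.1%. At 0 h there were 18 and 5, against 22.5% and 13.5%, and at 30 h 1 and 22, against 15.5% and 29.9%. The difference of responses gave 2 and 31, against 18.5% and 39.0%. At the larger, 2-fold, 0 of 75 were higher and 0 lower in the WT response, against 5.98% and 1.61% of the genes. The KD response gave 0 and 0, against 2.64% and 2.74%, and 0 h gave 0 and 0, against about 1% and 0.6%. At 30 h 0 were higher and 4 lower, against 1.14% and 2.16%. These 4 of 75 are a larger share than that of the genes. The difference of responses gave 0 and 5, against 3.24% and 7.43%. Mrpl47 lies below the filter.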
